A study of Rattus norvegicus with 6 samples.

Results

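Cholinergic interneurons of the rat nucleus accumbens were taken from single-nucleus RNA sequencing data by a rule on raw unique molecular identifiers (UMIs, one per captured RNA molecule). A nucleus was kept with at least 500 detected genes, at most 5% of UMIs in mitochondrial genes, at least 3 UMIs of Chat, Slc5a7 and Slc18a3 together, and at most 1 UMI of the glial genes Mog, Aqp4, Pdgfra and Csf1r together. Chat and Slc18a3 were not analysed here, so the nuclei were chosen by Slc5a7 UMIs, the high-affinity choline transporter gene, and every nucleus kept meets the rule. Nuclei that meet it only through Chat or Slc18a3 are not among them, so the number is a lower limit of what the rule would give. It found 321 of 61609 nuclei that passed the first 2 conditions, 0.521% (95% Wilson interval 0.467 to 0.581%).

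The tissue came from 12 adult Sprague-Dawley rats, 6 of each sex, aged 90 to 120 days, pooled into 6 libraries that each mix males and females. All rats had worked for heroin for 14 days, under fixed ratio 1, then fixed ratio 3 with a progressive ratio test on day 12. After the last session 1 group received saline (replicates 1 to 3) and the other naloxone, an opioid receptor antagonist (replicates 4 to 6), and brains were taken 1 h later. Both groups carry the heroin history, so the comparison is naloxone against saline after heroin, and a library is a pool of rats rather than 1 animal.

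Cholinergic interneurons are a rare class of large, tonically active striatal neurons that supply most of the acetylcholine of the region. They take up choline, acetylate it, load it into vesicles and are regulated by autoreceptors, by dopamine and by opioid receptors. Many of them descend from a progenitor domain in which the homeodomain factors Lhx8 and Isl1 specify the cholinergic fate, and the related factor Lhx6 marks a subset.

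Depth and composition differed among libraries. The 6 libraries held 55739350 to 76272798 UMIs and 7896 to 14519 passing nuclei. Saline replicates 1 to 3 gave 54, 51 and 44 cholinergic nuclei, and naloxone replicates 4 to 6 gave 57, 62 and 53. As a share of passing nuclei these were 0.684, 0.351 and 0.473% under saline and 0.532, 0.565 and 0.645% under naloxone. The groups overlapped (0.503% ± 0.168 and 0.581% ± 0.058, SD, n = 3 libraries each; exact two-sided permutation test p = 0.5, where the smallest value this design allows is 0.1). The median UMIs per cholinergic nucleus ran from 9506 to 13618.5 under saline and from 11540 to 16723 under naloxone (exact permutation p = 0.5), so the naloxone library with the deepest nuclei was replicate 6. No barcode was shared among the cholinergic nuclei of different libraries, although 5 of the 321 also occurred in another library among all barcodes.

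**Figure D1:**
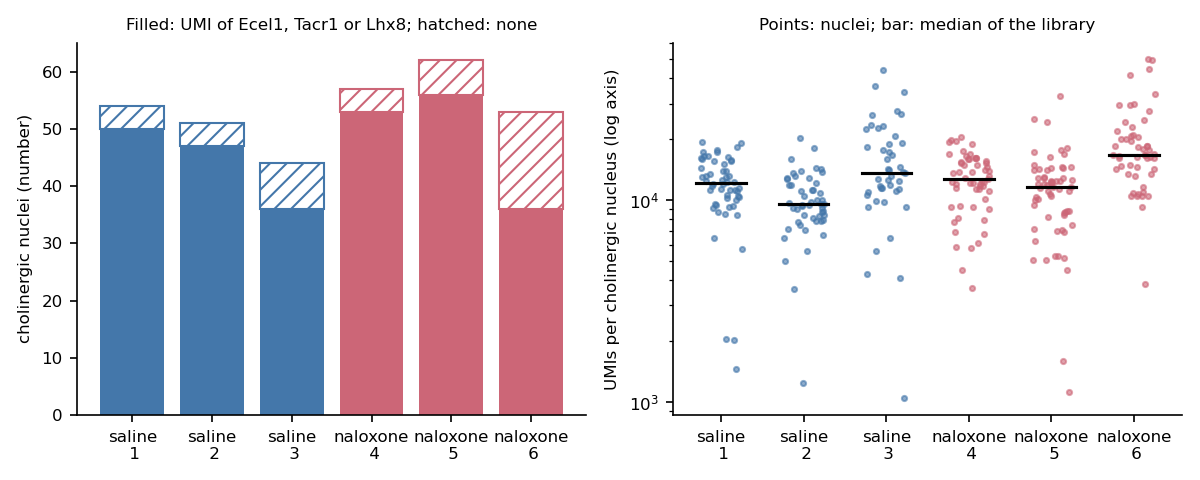
Left: number of cholinergic nuclei in each library, split into those with at least 1 UMI of Ecel1, Tacr1 or Lhx8 (filled) and those with none (hatched). Right: UMIs per cholinergic nucleus on a log axis, 1 point per nucleus with the library median as a bar; naloxone replicate 6 has the most nuclei without these markers (17) and the highest median (16723).

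The label was checked against 3 markers that the rule had not used. Ecel1, an endopeptidase, was detected in 189 of the 321 nuclei, Tacr1, the substance P receptor, in 252, and Lhx8 in 246. All 3 were found together in 161 nuclei (50.2%), and at least 1 in 278. The other 43 nuclei (13.4%) held none of them: 4, 4 and 8 in saline replicates 1 to 3 and 4, 6 and 17 in naloxone replicates 4 to 6. Naloxone replicate 6 stood apart, with 32.1% of its cholinergic nuclei lacking all 3 markers against 7.02 to 18.2% in the other 5 libraries. The group means did not separate (exact permutation p = 0.7). Depth was lower in the nuclei without markers in some libraries and close in others. In naloxone replicate 6, with 17 of them, their median was 16242 against 18436.5 UMIs, and in saline replicate 3, with 8, it was 11790 against 14133.5 UMIs. In the other 4 libraries their medians were 5824 to 7105.5 UMIs against 9658 to 13106 UMIs. The part of depth in the absence of markers was not tested.

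The 43 nuclei also differed in content, as a description of genes picked after the values were seen. Meis2, a homeodomain gene of spiny neurons, averaged 1286 CPM (its UMIs scaled to the total of the summed nuclei) in them against 91.9 CPM in the 278 others. Grm8 stood at 1345 against 132 CPM, Chrm3 at 551 against 33.7 CPM, Htr2c at 570 against 46.7 CPM and Gad1 at 216 against 36.8 CPM. Prima1 averaged 41.4 against 585 CPM. These nuclei carry the label by Slc5a7 alone, and they are part of the values below unless a value is said to leave them out.

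The edge of the rule shows the same gradient. Of the 321 nuclei, 60 had exactly 3 Slc5a7 UMIs, 226 had at least 5, and 149 nuclei lay just outside with 2. Lhx8 was detected in 88.9% ± 3.25 of nuclei with at least 5 UMIs, in 36.7% ± 20.6 of those with 3 and in 18.1% ± 8.25 of those with 2. Meis2 ran the other way, with 15.4% ± 6.11, 51.0% ± 15.1 and 52.9% ± 11.0 of nuclei (SD over 6 libraries). These shares were taken without thinning, and the part of depth in them was not tested. A further 29 nuclei had enough Slc5a7 but failed the glial limit.

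The levels that follow are CPM of UMIs summed over the cholinergic nuclei of a library, given as mean ± SD over 6 libraries. They are set beside 3 other gated classes: 122 Drd1 spiny nuclei, 2747 Drd2 spiny nuclei and 195 somatostatin interneurons, each without any Slc5a7 UMI. Since Slc5a7 chose the nuclei in the same contrast, these levels are described without a test. Of 3502 genes with at least 50 CPM in cholinergic nuclei, 347 (9.91%) exceeded all 3 classes in 6 of 6 libraries, and 62 (1.77%) did so with at least 4 times the highest class mean.

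Among genes of acetylcholine handling, Slc5a7 itself stood at 630, 619 and 637 CPM in the saline libraries and 586, 639 and 528 CPM in the naloxone libraries. Prima1, which anchors acetylcholinesterase in the membrane, averaged 534 ± 99.6 CPM against at most 4.97 CPM in the 3 other classes and 140 CPM in oligodendrocyte nuclei. Its libraries ranged from 381 CPM in naloxone replicate 6 to 693 CPM in naloxone replicate 5. Slc10a4, a transporter-family protein of cholinergic vesicles, averaged 97.2 ± 24.2 CPM, while no UMI of it was found in the Drd1 spiny or somatostatin nuclei and the Drd2 spiny nuclei averaged 1.06 CPM. Acly makes the cytosolic acetyl-CoA that acetylation draws on, and averaged 312 ± 55.5 CPM against at most 34.7 CPM. Ache, the esterase, averaged 72.8 ± 18.5 CPM against 31.5 CPM in somatostatin nuclei, and its relative Bche 42.7 ± 21.2 against 30.9 CPM. By contrast the general choline transporter Slc44a1 (99.7 ± 13.1 CPM) was above all 3 classes in no library.

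The 250 bases before the start site of Slc5a7, the gene that defines the class here, and of Slc10a4 and Prima1, acetylcholine genes with high ratios to the 3 neuronal classes, are shown because these genes were high together. They come from RefSeq (GRCr8, all on the minus strand, written 5′ to 3′ along the gene), at chr9:7953510-7953759, chr14:35557885-35558134 and chr6:128154637-128154886. Capitals mark TAATTA or TAATGA on either strand, variants of the TAAT core that many homeodomain proteins bind.
Slc5a7: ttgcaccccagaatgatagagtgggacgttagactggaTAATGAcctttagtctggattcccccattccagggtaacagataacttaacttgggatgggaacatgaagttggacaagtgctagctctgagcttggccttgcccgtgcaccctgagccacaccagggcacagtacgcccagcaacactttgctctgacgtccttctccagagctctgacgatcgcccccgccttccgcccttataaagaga
Slc10a4: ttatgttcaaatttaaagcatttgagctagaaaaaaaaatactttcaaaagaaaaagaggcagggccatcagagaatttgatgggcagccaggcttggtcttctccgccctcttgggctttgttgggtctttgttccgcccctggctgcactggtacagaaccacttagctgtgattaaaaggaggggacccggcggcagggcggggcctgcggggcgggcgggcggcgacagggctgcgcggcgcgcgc
Prima1: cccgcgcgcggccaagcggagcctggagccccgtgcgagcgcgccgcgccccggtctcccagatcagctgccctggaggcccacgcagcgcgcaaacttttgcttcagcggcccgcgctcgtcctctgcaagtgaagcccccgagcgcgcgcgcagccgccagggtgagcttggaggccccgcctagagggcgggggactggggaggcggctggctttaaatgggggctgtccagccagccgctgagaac
Slc5a7 held 1 match, beginning at base -212 from its start, and Slc10a4 and Prima1 held none. Over all 33469 promoters of this length in the table, 4.86% held TAATTA, 9.66% held TAATGA and 13.5% held either. Of the 25 genes with the largest ratio of levels described next, 19 had a promoter in the table and 0 held either motif. Counted by gene in the same way, 14.6% of all genes in the table held either. The match is a run of letters and says nothing of binding, and GC content differed between the sequences (53.2, 56.4 and 73.2%).

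The 25 genes with the largest ratio to the highest of the 3 classes, Slc5a7 left out, included receptors, signalling enzymes and adhesion molecules. Insrr, the insulin receptor-related receptor, averaged 70.6 ± 27.0 CPM in cholinergic nuclei and at most 0.205 CPM in the 3 classes. Those classes held only 5 UMIs of it, and oligodendrocyte nuclei averaged 0.433 CPM. Pgm5, a relative of phosphoglucomutase found at cell junctions, averaged 120 ± 32.5 CPM, with 528 UMIs against 10 in the 3 classes together. Rxfp2, a receptor of the relaxin family, averaged 139 ± 49.4 CPM against at most 1.68 CPM. Pde3a, a cyclic nucleotide phosphodiesterase, reached 722 ± 149 CPM against at most 16.3 CPM. Il1rapl2, a synaptic receptor of the interleukin-1 receptor family, reached 3973 ± 602 against at most 158 CPM. Over all other passing nuclei with at most 1 glial UMI, Pde3a averaged 50.8 CPM and Il1rapl2 488 CPM. Cd44, the hyaluronan receptor, stood at 102 ± 39.7 CPM and Tshz3, a zinc finger transcription factor, at 222 ± 70.8 CPM. Also in this set were the potassium channel genes Kcnk9 (81.4 ± 18.2 CPM) and Kcnt2 (1288 ± 141 CPM), Rgs12, Cadps2, Sntb1, Amigo2, Megf10, Dysf, Mcub, Tnfaip8l3, Tacr3 and a gene without a symbol, ENSRNOG00000065037 (137 ± 25.8 CPM). Megf10 averaged 202 ± 40.2 CPM in cholinergic nuclei but also 168 CPM in oligodendrocyte nuclei, a class that the ratio did not use. All 25 were above each of the 3 classes in 6 of 6 libraries, as the choice required, and all 25 averaged lower in the 43 nuclei without markers than in the other 278. Lhx8 and Ecel1 are among the 25 and defined those 43 nuclei, so their own difference is fixed by the split. All 25 were ranked on sums in which the 278 nuclei held 3855998 of 4340595 UMIs. The choice thus favoured genes high in those 278, and the lower levels in the 43 are no separate evidence.

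**Figure D2:**
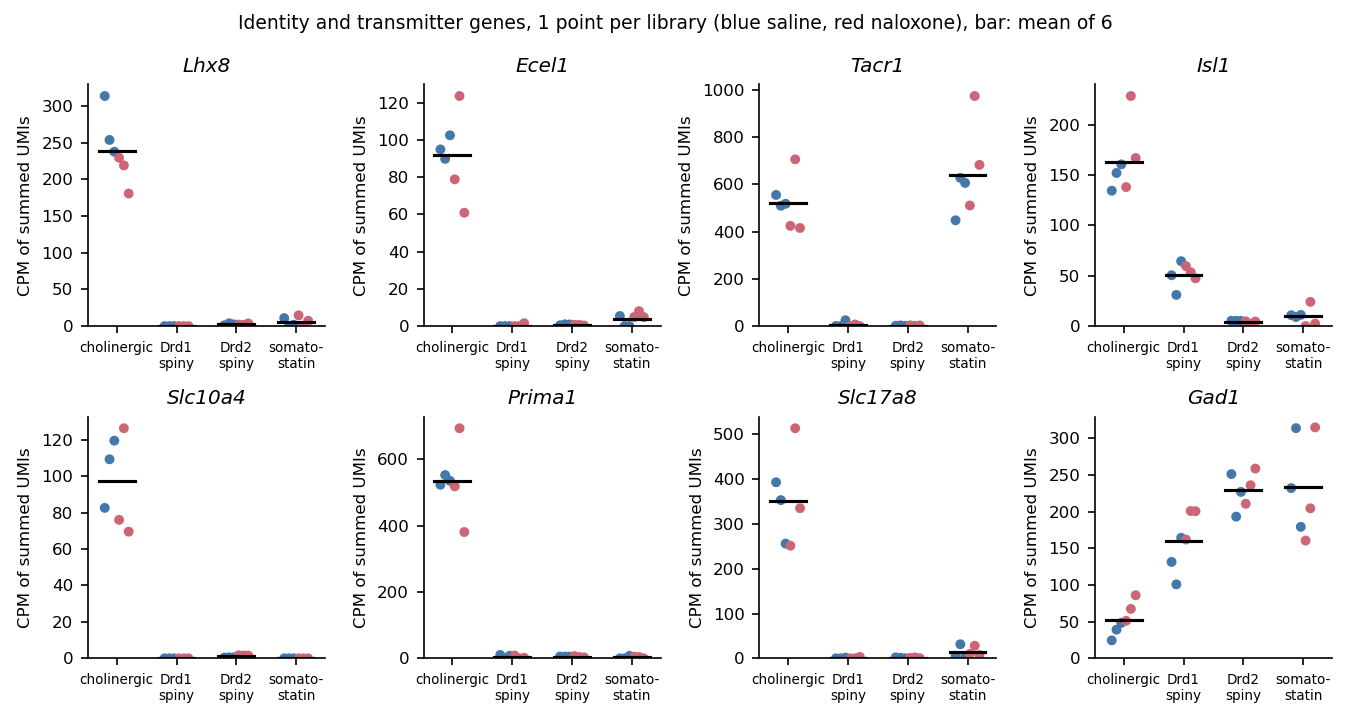
CPM of summed UMIs per library (points, blue saline and red naloxone) in cholinergic, Drd1 spiny, Drd2 spiny and somatostatin nuclei, with the mean of 6 libraries as a bar. Lhx8, Ecel1, Slc10a4, Prima1 and Slc17a8 are near 0 in the other classes shown, Tacr1 is as high in somatostatin nuclei, and Gad1 is lowest in cholinergic nuclei.

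Among identity transcription factors, Lhx8 stood at 314, 254 and 238 CPM in saline replicates 1 to 3 and 229, 219 and 181 CPM in naloxone replicates 4 to 6, against at most 5.74 CPM as the mean of another class. Isl1 averaged 164 ± 34.3 CPM against 51.1 CPM in Drd1 spiny nuclei, which are known to use it, and at most 9.55 CPM in the other classes. The zinc finger genes Zic1 (24.0 ± 5.57 CPM) and Zic4 (17.9 ± 5.55 CPM) were above all 3 classes in every library. Gbx2, a homeodomain gene of the developing cholinergic lineage, was detected in 6 of 321 nuclei. Lhx6 averaged 24.5 ± 3.76 CPM, below the 74.4 CPM of somatostatin nuclei and above the 0.256 and 0.882 CPM of Drd1 and Drd2 spiny nuclei.

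Among surface receptors, Tacr1 averaged 521 ± 106 CPM and was near 0 in spiny nuclei, but somatostatin nuclei averaged 641 ± 184 CPM and cholinergic nuclei exceeded them in only 1 of 6 libraries. Tacr1 thus separated cholinergic from spiny nuclei and not from somatostatin interneurons. Tacr3, the neurokinin B receptor, averaged 55.7 ± 43.3 CPM, a mean carried by naloxone replicate 4 (141 CPM) over 5 libraries at 30.9 to 61.2 CPM. The neurotrophin receptor gene Ngfr (13.7 ± 5.76 CPM) was almost confined to cholinergic nuclei among these 4 classes, with a mean of at most 0.0839 CPM elsewhere.

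Of the opioid receptor genes, Oprm1, the mu receptor and main target of heroin and naloxone, was higher in cholinergic nuclei than in each of the 3 classes. It stood at 165, 168 and 192 CPM under saline and 153, 163 and 164 CPM under naloxone. The other means were 47.9 ± 7.85 CPM in Drd1 spiny, 31.1 ± 7.90 CPM in Drd2 spiny and 51.2 ± 24.9 CPM in somatostatin nuclei, and the order held in 6 of 6 libraries. At least 1 Oprm1 UMI was seen in 65.4% ± 7.28 of cholinergic nuclei and in 7.09% ± 1.18 of oligodendrocyte nuclei, a class that gives the level of free RNA, at median depths of 12406 and 2048 UMIs. Thinned to 1000 UMIs per nucleus the shares were 16.5% ± 4.19 and 1.69% ± 0.30, with 843 of 10142 oligodendrocyte nuclei and 0 cholinergic nuclei left out as too shallow. Oprm1 was also found in nuclei without the 3 markers (122 CPM against 177 CPM in the others).

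The other opioid receptor genes were not above all 3 classes in every library. Oprd1, the delta receptor, averaged 27.6 ± 15.6 CPM, below the 75.3 CPM of Drd2 spiny nuclei and with 57.5 CPM in naloxone replicate 5 against 13.5 to 28.5 CPM in the other 5 libraries. Oprk1, the kappa receptor, averaged 2.06 ± 1.36 CPM against 33.0 CPM in Drd1 spiny nuclei. Oprl1, the nociceptin receptor, averaged 6.47 ± 4.30 CPM, with 14.4 CPM in somatostatin nuclei. The enkephalin precursor Penk (18.4 ± 8.89 CPM) was below Drd2 spiny nuclei in 6 of 6 libraries, and below Drd1 spiny and somatostatin nuclei in 5 of 6 each.

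Receptors for acetylcholine and dopamine split by subtype. Chrm2, the inhibitory muscarinic autoreceptor, averaged 494 ± 79.5 CPM against at most 6.30 CPM in spiny nuclei and 631 ± 206 CPM in somatostatin nuclei, with cholinergic nuclei ahead in 1 of 6 libraries. Chrm4, a muscarinic receptor of direct pathway neurons, averaged 8.03 ± 5.11 CPM, and Chrm1 3.05 ± 2.38 CPM, both below a spiny class. Chrm3 averaged 74.0 ± 46.5 CPM over all cholinergic nuclei and 33.7 CPM over those with markers. Drd2 averaged 25.3 ± 16.8 CPM, below the 62.9 CPM of oligodendrocyte nuclei. It was seen in 13.8% ± 6.20 of cholinergic nuclei against 6.5% ± 1.93 of oligodendrocyte nuclei. Thinned to 1000 UMIs these shares were 3.10% ± 3.63 and 2.21% ± 0.97, which overlap. Neither pair of shares can decide how much of the Drd2 signal was free RNA. The classes differ in depth before thinning, and few nuclei keep a Drd2 UMI after it. The part of free RNA was not tested. Drd5, often described in these cells, was detected in 2 of 321 nuclei.

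Among cotransmitter genes, that of glutamate loading was high and those of GABA synthesis were low beside the other classes. Slc17a8, the vesicular glutamate transporter VGLUT3, averaged 350 ± 97.4 CPM against 14.2 CPM in somatostatin nuclei and at most 1.17 CPM in spiny nuclei. It was detected in 208 of 321 nuclei, from 252 CPM in naloxone replicate 4 to 514 CPM in naloxone replicate 5. Gad1 averaged 52.7 ± 21.6 CPM and Gad2 146 ± 38.4 CPM, and in every library Gad1 was below all 3 classes and Gad2 below both spiny classes. Gad1 averaged 36.8 CPM in nuclei with markers and 216 CPM in the 43 without.

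**Figure D3:**
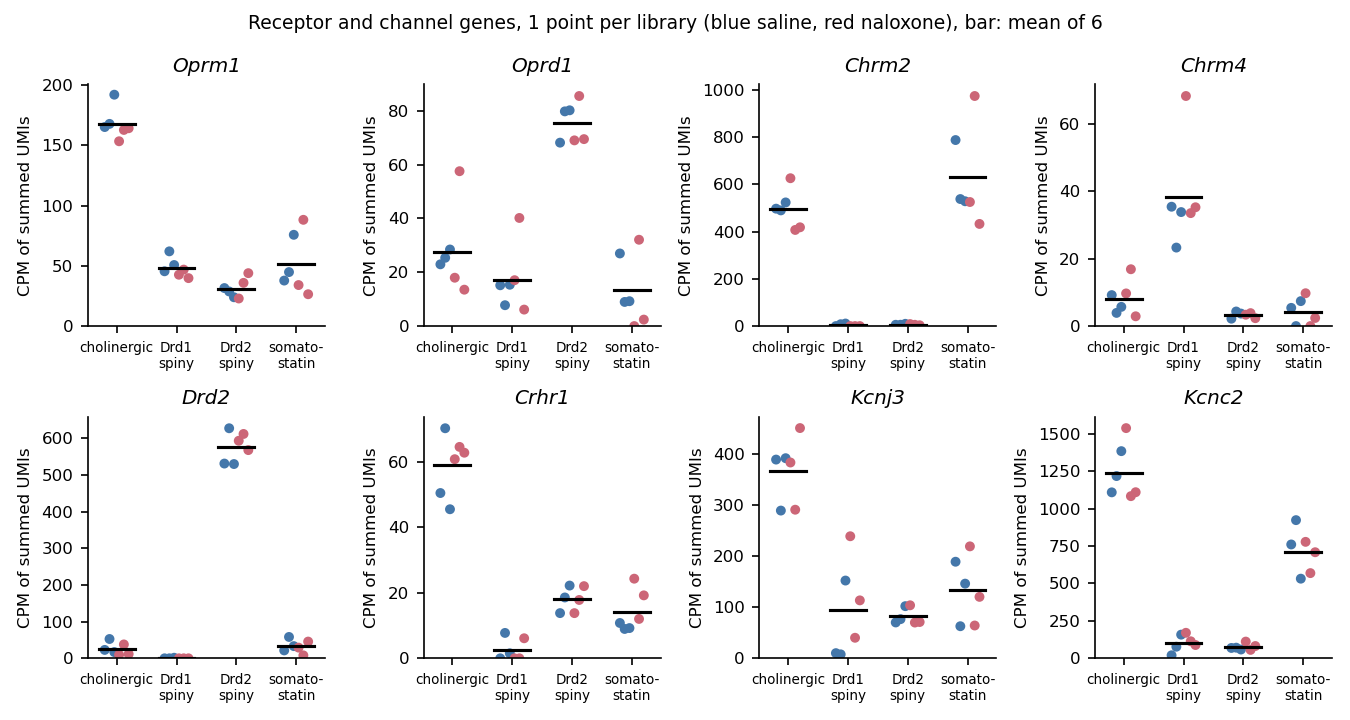
CPM of summed UMIs per library (points, blue saline and red naloxone) in the same 4 classes, with the mean of 6 libraries as a bar. Oprm1, Crhr1, Kcnj3 and Kcnc2 are highest in cholinergic nuclei, Oprd1 and Drd2 in Drd2 spiny nuclei, Chrm4 in Drd1 spiny nuclei, and Chrm2 is high in cholinergic and somatostatin nuclei.

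Signalling genes set cholinergic nuclei apart from spiny nuclei in both directions. Rgs9, Adcy5 and Pde10a, G-protein and cyclic AMP genes of spiny neurons, averaged 85.0 ± 23.9, 106 ± 13.7 and 513 ± 126 CPM, each below both spiny classes in every library. Adcy2, another adenylyl cyclase, averaged 1186 ± 142 CPM against at most 590 CPM, and Rgs7 1245 ± 134 against at most 646 CPM. The corticotropin-releasing factor receptor Crhr1 averaged 59.1 ± 9.27 CPM against at most 18.04 CPM. Among 42 channel genes on a list of pacemaking and excitability, Kcnj3 (365 ± 63.5 against at most 133 CPM), Cacna1b (493 ± 29.6 against 258 CPM), Cacna1d (797 ± 77.6 against 443 CPM) and Kcnc2 (1240 ± 184 against 712 CPM) were above all 3 classes in 6 of 6 libraries. Kcnd2, Kcnq5 and Cacna1e were below all 3 or both spiny classes. Hcn4, a pacemaker channel, averaged 12.3 ± 2.39 CPM against at most 2.52 CPM, above all 3 classes in 5 of 6 libraries.

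Naloxone was then compared with saline over the 3 libraries of each group by edgeR's quasi-likelihood test. No gene of 7522 tested passed an adjusted p of 0.05 (0%), and DESeq2 also called 0. Unadjusted p was under 0.05 for 412 genes (5.48%), 203 higher (2.7%) and 209 lower (2.78%), and the libraries of the groups did not overlap for 813 (10.8%). On simulated counts the same fit recovered 54.5% of genes changed by 1 log2 unit, so changes of that size could be missed. Leaving out naloxone replicate 5 gave 28 calls, 20 higher and 8 lower, and no filter on low counts gave 55.

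None of the receptor genes was called. Oprm1 averaged 175 ± 14.8 CPM under saline and 160 ± 5.88 CPM under naloxone, a log2 difference of -0.14 ± 0.14 (SE, edgeR adjusted p = 0.941), and its libraries did not overlap by a narrow margin (165 against 164 CPM). Slc5a7, whose level the rule sets in part, stood at 629 ± 9.44 and 584 ± 55.1 CPM. Chrm2 differed by -0.07 ± 0.17 and Tacr1 by -0.06 ± 0.18 log2 units. For Chrm2 and Tacr1 the sign turned when single naloxone libraries were left out. Of 9 acetylcholine genes tested beside Slc5a7, 6 were lower and 3 higher, with a median of -0.04 against 0.00074 over all genes tested. The lowest were Bche (55.9 ± 18.9 to 29.5 ± 15.7 CPM) and Ache (85.1 ± 14.6 to 60.4 ± 13.5 CPM), both with an edgeR adjusted p of 0.892. Lhx8 went from 268 ± 40.0 to 210 ± 25.7 CPM with no overlap (log2 difference -0.38 ± 0.15, edgeR adjusted p = 0.892). Its difference was -0.28 without naloxone replicate 6. In nuclei with markers it was -0.29, but Lhx8 helps to define that set, so this value is no check of it.

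Utrn, which encodes the cytoskeletal linker utrophin, had the lowest p-value. It stood at 222, 160 and 178 CPM in saline replicates 1 to 3 and 96.7, 98.2 and 79.2 CPM in naloxone replicates 4 to 6. Every naloxone library was thus below every saline library, with a log2 difference of -1.06 ± 0.17 and an edgeR adjusted p of 0.135. Across the alternatives that adjusted p ran from 4.24e-05 with no filter and 0.0194 without naloxone replicate 5 to 0.999 without saline replicate 1. In the Drd1 and Drd2 spiny nuclei summed together Utrn stood at 328 CPM under saline and 306 CPM under naloxone.

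Among heat shock and chaperone genes, a list chosen with earlier results of these data known, no member was called. All members were measured in the same 6 libraries, so their directions are not separate results. Of 19 listed genes, 13 were tested: 12 were lower under naloxone and 1 higher, 0 were called by edgeR, and 7 had an unadjusted p under 0.05, all lower, where 2.78% of all genes did. The median was -0.50 against 0.00074 over all genes. The count of 7 became 3 without naloxone replicate 4, 4 without saline replicate 3 and 4 with DESeq2, while the median with single libraries left out ran from -0.60 to -0.47. With no filter on low counts 1 of 18 was called, Hsph1 (edgeR adjusted p = 0.00671). Hsph1, a co-chaperone of the Hsp70 family, stood at 106, 82.0 and 83.9 CPM under saline and 30.4, 37.9 and 66.6 CPM under naloxone. Its log2 difference was -0.97 ± 0.26 (edgeR adjusted p = 0.849), with no overlap of the libraries. Dnaja1, a co-chaperone of the Hsp40 family, went from 85.3 ± 12.0 to 56.4 ± 6.13 CPM, Hspa5, the chaperone of the endoplasmic reticulum, from 218 ± 39.5 to 157 ± 28.0 CPM and Stip1 from 64.6 ± 8.44 to 43.5 ± 5.46 CPM. Dnajb4 was the gene on the higher side, at 37.8 ± 8.36 and 46.4 ± 13.0 CPM. With only the 278 nuclei that held a marker, 12 of 13 were again lower and the median was -0.51.

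**Figure D4:**
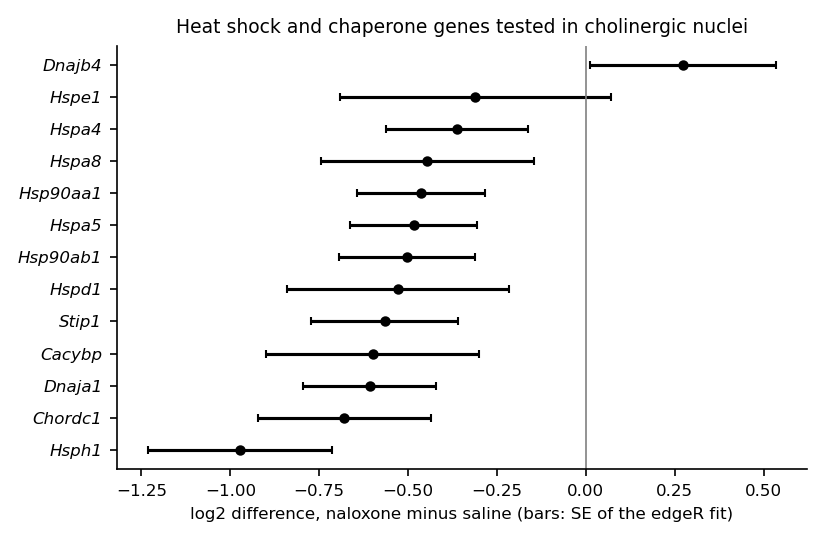
Log2 difference between naloxone and saline for each of the 13 tested heat shock and chaperone genes in cholinergic nuclei, with the SE of the edgeR fit as bars and a line at 0. All but Dnajb4 lie below 0, and none passed the adjusted test.

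Several of the values that were higher under naloxone shrank when naloxone replicate 6 was left out, the library with 17 of the 43 nuclei without markers. The part of those nuclei in the shrinking was not tested. Ndst4, a heparan sulfate enzyme, stood at 24.5, 56.6 and 41.3 CPM under saline and 91.2, 61.8 and 199.9 CPM under naloxone, with its highest value in replicate 6 (log2 difference 1.59 ± 0.40, edgeR adjusted p = 0.849). In nuclei with markers the difference was 0.95, and without naloxone replicate 6 it was 0.91. Cacna1g, a T-type calcium channel, went from 15.1 ± 2.70 to 39.9 ± 17.9 CPM (1.44, or 0.96 without replicate 6), and Homer1 from 61.2 ± 24.5 to 106 ± 50.1 CPM (0.82, or 0.32). Gad1 stood at 24.5, 39.0 and 48.4 CPM under saline and 51.1, 67.4 and 86.0 CPM under naloxone, without overlap (0.87 ± 0.27, edgeR adjusted p = 0.891, and 0.77 in nuclei with markers). Other values were less tied to that library: Usp29, a deubiquitinase, went from 535 ± 64.5 to 783 ± 67.0 CPM (0.54 ± 0.14, and 0.50 without replicate 6) and Elapor1 from 34.1 ± 4.39 to 60.5 ± 6.20 CPM (0.82 ± 0.22, and 0.83). The remaining named genes on this side were Spetex2l3, LOC102555037, Ccdc30, Myo5b, Etl4 and Ly6h, with log2 differences of 0.59 to 1.26. On the lower side were Fign, Swt1, Tmem65, Gpc5, Ccdc93, Zbtb44, Sppl2a and Zfp606, with -1.32 to -0.52, all with an edgeR adjusted p of 0.816 or more.

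**Figure D5:**
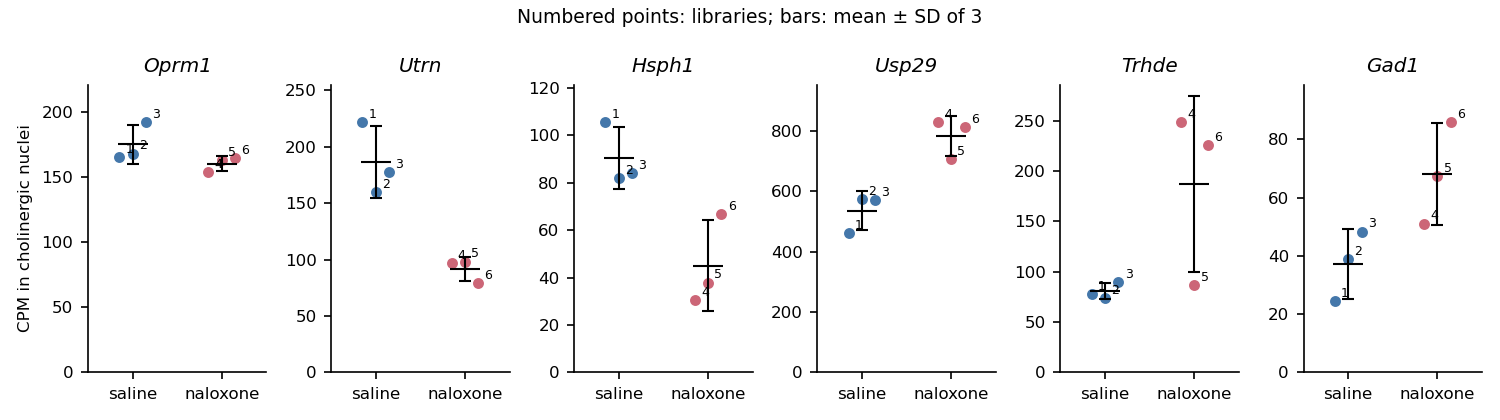
CPM in cholinergic nuclei for 6 genes, with each library as a numbered point and mean ± SD of 3 libraries as bars. Utrn and Hsph1 are lower in all naloxone libraries, Usp29 and Gad1 are higher in all of them, Oprm1 differs little, and Trhde is high in naloxone replicates 4 and 6 but not 5.

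No member of the other receptor and channel lists was called. Of 13 GABA receptor genes tested, 3 had an unadjusted p under 0.05 on the higher side and 1 on the lower. Gabra2 went from 186 ± 39.8 to 272 ± 32.6 CPM (log2 difference 0.52 ± 0.17) and Gabra4 from 156 ± 2.72 to 117 ± 11.4 CPM (-0.43 ± 0.15), both without overlap and with an edgeR adjusted p of 0.892. None of 20 glutamate receptor genes had an unadjusted p under 0.05. Of 31 channel genes tested, 3 had one on the higher side and 1 on the lower, and Kcnd2, an A-type potassium channel, went from 2690 ± 156 to 2094 ± 225 CPM (-0.38 ± 0.14, edgeR adjusted p = 0.892). Only 2 of 25 activity-regulated genes passed the filter on low counts, and Fos was represented by 5 UMIs over all 321 nuclei. The 2 tested genes were both higher under naloxone (median log2 difference 0.54), 1 with an unadjusted p under 0.05 by edgeR and 0 called. Most of this list was thus not tested, and the reason for its low counts was not tested either. Markers of oligodendrocytes summed to 110 to 127 CPM under saline and 147 to 193 CPM under naloxone (6 of 6 markers detected), those of astrocytes to 149 to 182 and 101 to 171 CPM, and those of spiny neurons to 714 to 1029 and 889 to 1058 CPM (11 of 12 markers matched). The part of these levels in the naloxone values was not tested.

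The naloxone difference was compared between cholinergic and spiny nuclei with an interaction term, with the library as a block. The spiny sums held 2747 Drd2 and 122 Drd1 nuclei, so they mostly reflect Drd2 spiny nuclei. No gene of 11116 passed (0%), DESeq2 also called 0, and 509 (4.58%) had an unadjusted p under 0.05, 2.16% higher and 2.42% lower, while the differences between classes in the saline and the naloxone libraries did not overlap for 9.96%. The lowest adjusted p was 0.281 by edgeR, shared by Trhde, a peptidase that degrades thyrotropin-releasing hormone, and Utrn. Trhde stood at 78.0, 74.2 and 89.6 CPM under saline and 249, 87.0 and 226 CPM under naloxone in cholinergic nuclei, where naloxone replicate 5 lay within the saline range, and averaged 65.0 and 60.1 CPM in spiny nuclei. Its interaction term was 1.25 ± 0.23, and that of Utrn -0.97 ± 0.18. The heat shock genes gave a median interaction of -0.23, with 11 of 15 lower and 0 called, so a difference from spiny nuclei was not shown for them. Gng2, a G-protein gamma subunit, went from 174 to 204 CPM in cholinergic nuclei and from 14.5 to 28.8 CPM in spiny nuclei (interaction -0.76 ± 0.18, edgeR adjusted p = 0.911). The fit recovered 32% of simulated interactions of 1 log2 unit, and without naloxone replicate 5 it gave 13 calls.

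Since each library pooled both sexes, nuclei were assigned by Xist and Y-linked UMIs and compared within libraries. This gave 155 female and 132 male cholinergic nuclei, and 34 with both or neither were left out. Beside the genes used for the call, edgeR called 2 of 4545 genes (0.044%), both higher in female nuclei and in 6 of 6 libraries. Of all genes 4.8% had an unadjusted p under 0.05 (2.07% higher and 2.73% lower in female nuclei), and 3.08% differed in the same direction within all 6 libraries. Kdm6a, an X-linked histone demethylase known to escape X inactivation, averaged 322 ± 40.6 CPM in female and 182 ± 25.8 CPM in male nuclei (log2 difference 0.82 ± 0.12, edgeR adjusted p = 0.0068). ENSRNOG00000065796, a gene without a symbol in the files, averaged 314 ± 15.01 CPM in female nuclei and 0.595 ± 1.46 CPM in male nuclei (edgeR adjusted p = 3.27e-09). Hpcal1 and Stard9 came next, at 80.2 against 40.2 CPM and 49.7 against 23.2 CPM, without passing (edgeR adjusted p = 0.301 for both). DESeq2 and each library left out gave the same 2 genes.

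Cholinergic nuclei were split by Lhx6, which marks a subset of these neurons in mice. At least 1 Lhx6 UMI was found in 84 of 321 nuclei (26.5% ± 5.26 over libraries), and in 0.64% ± 0.24 of oligodendrocyte nuclei, or 2.22% ± 0.86 and 0.12% ± 0.044 when thinned to 1000 UMIs. After thinning to 3000 UMIs, which left out 7 nuclei, 26 were Lhx6-positive (4, 5, 8, 3, 5 and 1 in replicates 1 to 6) and 288 negative. Negative here means that no Lhx6 UMI was left after thinning, and most of the 84 nuclei that held 1 before it count as negative. All 26 positive nuclei held Ecel1, Tacr1 or Lhx8, against 247 of the 288 negative ones. In this draw the nuclei without markers thus lay only on the negative side. Before thinning, 1, 1, 1, 0, 0 and 4 of them held Lhx6 in replicates 1 to 6. Between the positive and negative nuclei of the thinned split, with the library as a block, edgeR called 61 of 4424 genes (1.38%). All 61 were lower in Lhx6-positive nuclei and 0 higher. The positive sums held 289753 UMIs and the negative sums 4040317, and genes could pass the filter on low counts through the negative side alone. The part of this imbalance in the direction of the calls was not tested. On simulated counts this fit recovered 37% of genes changed by 1 log2 unit. An unadjusted p under 0.05 was found for 7.08% of genes (1.4% higher and 5.67% lower), and 4.52% differed in the same direction within all 6 libraries. Meis2 averaged 13.2 ± 23.8 CPM in Lhx6-positive and 222 ± 91.5 CPM in Lhx6-negative nuclei (log2 difference -4.13 ± 0.53, edgeR adjusted p = 8.76e-12), lower in 6 of 6 libraries. Gria3, an AMPA receptor subunit, averaged 8.10 ± 15.7 and 194 ± 101 CPM, Grm8, a metabotropic glutamate receptor, 17.9 ± 39.4 and 281 ± 123 CPM, and Sorcs3 11.0 ± 27.0 and 232 ± 95.7 CPM, each lower in 6 of 6 libraries.

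The Lhx6 result rests on few nuclei and on how they were split. With 1 to 8 positive nuclei in a library, Gria3 and Meis2 each had no UMI on the positive side in 4 of 6 libraries. These 4 were not the same for both genes. Klhl1 and Kcnh7 were lower in 5 of 6 libraries but higher in naloxone replicate 6, which held 1 positive nucleus. Among the 278 nuclei with markers, 36 genes were called, 35 of them shared with the 61, and in them Meis2 stood at 13.2 against 98.3 CPM (log2 difference -2.64), Grm8 at 17.9 against 142 CPM (-2.76), Gria3 at 8.10 against 177 CPM (-3.97) and Sorcs3 at 11.0 against 233 CPM (-3.28). Without thinning, 84 positive nuclei gave 132 calls, 50 higher and 82 lower, of which 32 were shared. In that split Meis2 stood at 48.3 against 269 CPM and Gria3 at 55.6 against 225 CPM, lower in 6 of 6 libraries. On the higher side were Cdh8 (1309 against 845 CPM), Tshz2 (1186 against 711 CPM) and Sox6 (105 against 16.3 CPM, higher in 5 of 6 libraries). After thinning Cdh8 and Tshz2 were not called and Sox6 did not pass the filter on low counts. DESeq2 called 24 genes on the thinned split. The share of Lhx6-positive nuclei after thinning was 12.1% ± 5.69 under saline and 5.16% ± 3.22 under naloxone (exact permutation p = 0.2).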

How the data were processed

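Nuclei were profiled with the 10x Chromium GEM-X 3′ v4 kit. Per the submitters' processing notes, Cell Ranger 9.0.1, Seurat 5.2.1, R 4.4.0 and the mRatBN7.2 build were used. The deposited matrices hold raw UMI counts per gene and barcode (64260 barcodes, 25629 genes). The labels state 44592 nuclei, below the 64260 barcodes and the 61609 that pass the limits of 500 genes and 5% mitochondrial UMIs, so further filters of the authors were not applied here. Of 340 listed genes, 330 matched a symbol. Counts were summed per library and tested with edgeR 4.0.16 (TMM, filterByExpr, Benjamini-Hochberg adjustment over all genes, threshold 0.05), with DESeq2 1.42.0 as an alternative. Other p-values are exact permutation tests over libraries, and intervals cover counting error only. The labels do not tie rats to libraries beyond the pooling, so p-values measure the spread between pools. Doublets were the nuclei with the highest Scrublet scores (scanpy 1.11.5), as many as 0.4% expected per 1000 nuclei gives; this marked 2 members, and 23 held Xist and Y-linked UMIs together. They were kept, and left out together (25 nuclei) as an alternative.

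The other classes were gated on UMIs among nuclei without Slc5a7 UMIs and with at most 1 glial UMI: Drd1 spiny by at least 3 of Drd1 and at most 1 of Drd2 and Adora2a, Drd2 spiny by at least 3 of Drd2 and Adora2a with at least 1 of Adora2a and at most 1 of Drd1, and somatostatin by at least 3 of Sst and Npy. Oligodendrocyte nuclei had at least 2 Mog UMIs and none of the other glial genes. The members, lists and comparisons were chosen with earlier results of these data known. Named genes are the called ones with the largest change, otherwise the lowest unadjusted p among genes of at least 20 CPM whose libraries do not overlap (10 in each direction; in the sex and Lhx6 fits, genes with the same direction within every library, and in the interaction, class differences that do not overlap between treatments), plus genes of the lists and, for levels, the 25 largest ratios.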

Additional observations from a re-analysis of the deposited data

How the results depend on the processing

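No paired analysis was run, because the labels give no pairing: saline libraries are numbered 1 to 3 and naloxone libraries 4 to 6. This numbering does not exclude a batch shared across the groups. The median mitochondrial share of cholinergic nuclei was 0.077, 0.180 and 0.082% in saline replicates 1 to 3. In naloxone replicates 4 to 6 it was 0.089, 0.195 and 0.082%. Whether libraries of the 2 groups shared a batch was not tested. The naloxone count of 0 genes became 55 without the low-count filter, and leaving out single libraries gave 0 to 28 (28 without naloxone replicate 5). The interaction count of 0 became 42 without the filter and ran from 0 to 13 with single libraries left out (13 without naloxone replicate 5). The sex count of 2 became 13 without the filter. The Lhx6 count of 61 became 24 with DESeq2, 107 without the filter, 132 without thinning and 36 in nuclei with markers, and ran from 34 to 67 with single libraries left out (34 without saline replicate 3). The cause of these moves was not tested. The other alternatives, among them RLE factors, left-out doublets, a gate of at least 5 UMIs and at least 1000 genes, kept the naloxone count at 0. The naloxone minus saline share of cholinergic nuclei stayed positive, at 0.00213 to 0.168 percentage points with single libraries left out, and the difference in median UMIs at 363 to 2954. Signs turned for Oprd1 (-0.72 without naloxone replicate 5), Tacr1 (0.061 and 0.070 without naloxone replicates 4 and 6, 0.011 in nuclei with markers), Chrm2 (0.048 and 0.015 without naloxone replicates 5 and 6) and Slc17a8 (-0.038 without saline replicate 3, -0.17 without naloxone replicate 5) in the naloxone fit, where the far ends with single libraries left out were 0.52 for Oprd1, -0.33 for Tacr1, -0.30 for Chrm2 and 0.32 for Slc17a8. They also turned for C5h8orf34 in the sex fit (0.14 in nuclei with markers) and for Slc35f4 in the Lhx6 fit (0.12 without thinning). The alternative of nuclei with markers was added after the data were seen, except in the naloxone fit. Tacr1 and Lhx8 help to define those nuclei, so their own values there are no check of them. Most activity-regulated genes and most receptors of low level did not pass the filter on low counts with 44 to 62 nuclei per library.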

Other observations

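AC126482.2, a gene without a further name in the files, was chosen after its values were seen. It averaged 9.20 ± 1.34 CPM in cholinergic nuclei and had at least 1 UMI in 34 of 321 of them, against 1 of 2747 Drd2 spiny nuclei and 3 of 10142 oligodendrocyte nuclei. It was found in nuclei with markers only (34 of 278), and in 0 of the 43 others. The nuclei without markers also held Foxp2 at 996 CPM against 66.6 CPM in those with markers, and Ebf1 at 95.3 ± 161 against 1.28 ± 1.07 CPM, so Ebf1 varied widely between libraries there. Leaving out naloxone replicate 5 called genes that the full fit did not, among them Sox5 (35.7 and 105 CPM under saline and naloxone), Shisa6 (16.5 and 68.1 CPM), Zfpm2 (13.3 and 66.0 CPM) and, on the lower side, Rarb (166 and 124 CPM) and Cd44 (126 and 78.9 CPM). These CPM are means of all 3 libraries of each group, and under naloxone the SD of Zfpm2 (67.6 CPM) and Rarb (144 CPM) exceeded their means.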
